A study of Mus musculus with 65 samples.

Results

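Nfia, Nfib and Nfix encode members of the nuclear factor I family of transcription factors, and their read counts were examined in 65 single cells of the developing mouse cortex. They are 3 of the 11971 genes measured. They were chosen by earlier results from these same cells, in which Nfib was low in cells with the interneuron gene Dlx5, so their levels across the cell classes below are a description and carry no test. All 65 cells form 1 group, from C57BL/6J embryos at E13.5 (13.5 days of gestation), with no treatment or allele named. The cortical hemispheres were dissected without the ganglionic eminences, the brains of all pups were pooled, and cells that excluded the dye propidium iodide were sorted singly and turned into full-length cDNA libraries. The labels call every cell a neural progenitor. Because brains were pooled and no animal is named, cells are not replicates of a condition, and no p-value or standard error was computed across them. The titles number the cells in 3 sets of 31, 13 and 21 cells whose meaning the labels do not give. Whether the sets came from 1 pool is therefore not known, and values are repeated within these sets where they matter.

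Nuclear factor I proteins bind DNA as dimers, at a palindrome made of the letters TTGGC and their reverse complement, and can raise or lower transcription. The family has a further gene, Nfic. In the developing forebrain Nfia, Nfib and Nfix are known for their roles in radial glia, the stem cells of the cortex, where they favour the step from self-renewal to differentiation and later the production of glia. They are also active in young neurons of the deep cortical layers, and loss of Nfia or Nfib in mice disturbs the corpus callosum.

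In the GENCODE annotation of build GRCm38, Nfia lies on the plus strand at chr4:97772734-98118874, Nfib on the minus strand at chr4:82290173-82705750 and Nfix on the minus strand at chr8:84699876-84800344. The start of Nfia and those of 3 genes named below for their likeness or opposition to the members are shown next. Neurod2 and Nhlh1 were picked after the motif search because they hold the same E-box letters as Nfia, and Zfhx3 is set beside them without those letters. Each sequence is the 250 bases before the start of transcription in the RefSeq promoter table (GRCm38.p6), read 5′ to 3′ on the gene's own strand. Capitals mark CAGATG or its reverse complement CATCTG, an E-box of the kind bound by neuronal basic helix-loop-helix factors, and TTGGC or its reverse complement GCCAA, one arm of the nuclear factor I site. The Nfia window is chr4:97581693-97581942 on the plus strand. This start lies upstream of the GENCODE gene model, so other starts of the gene are not shown.
Nfia: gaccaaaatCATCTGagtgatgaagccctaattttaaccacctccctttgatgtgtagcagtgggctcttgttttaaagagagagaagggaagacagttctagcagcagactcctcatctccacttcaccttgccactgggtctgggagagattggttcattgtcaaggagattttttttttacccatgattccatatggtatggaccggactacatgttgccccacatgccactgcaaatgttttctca
Neurod2 (chr11:98329646-98329895, minus strand) and Nhlh1 (chr1:172057597-172057846, minus strand) encode neuronal basic helix-loop-helix factors and were among the genes whose pattern was most like that of Nfia or Nfib.
Neurod2: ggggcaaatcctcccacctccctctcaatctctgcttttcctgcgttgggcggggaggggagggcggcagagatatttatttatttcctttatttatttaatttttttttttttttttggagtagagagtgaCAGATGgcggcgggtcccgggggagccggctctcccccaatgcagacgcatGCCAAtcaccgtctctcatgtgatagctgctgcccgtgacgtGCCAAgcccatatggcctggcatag
Nhlh1: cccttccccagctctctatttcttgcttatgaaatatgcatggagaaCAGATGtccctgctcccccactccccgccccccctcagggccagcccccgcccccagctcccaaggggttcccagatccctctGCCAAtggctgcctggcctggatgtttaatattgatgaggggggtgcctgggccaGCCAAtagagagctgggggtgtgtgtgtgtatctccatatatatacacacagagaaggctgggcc
Zfhx3 (chr8:108714394-108714643, plus strand), a gene for a large zinc finger and homeodomain factor, was the one whose pattern was most opposed to both.
Zfhx3: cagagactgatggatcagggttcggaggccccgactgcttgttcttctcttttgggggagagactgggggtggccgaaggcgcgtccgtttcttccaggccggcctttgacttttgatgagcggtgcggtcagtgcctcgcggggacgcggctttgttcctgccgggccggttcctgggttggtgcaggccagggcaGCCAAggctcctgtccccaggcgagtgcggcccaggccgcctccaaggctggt
The E-box letters stood 241 bases before the start in Nfia, 118 in Neurod2 and 203 in Nhlh1, and were not in the Zfhx3 window. The arm letters were in the Neurod2, Nhlh1 and Zfhx3 windows and not in that of Nfia. Searched on both strands, the E-box letters occur in 14.4% of 32851 RefSeq promoters of this length, the arm letters in 41.5%, and the full palindrome, TTGGC and GCCAA with 5 bases between them, in 0.0365%. The palindrome was in none of the 4 windows. Of the 8 genes most like Nfia, 6 were matched in the table and 1 held the E-box letters, and of the 8 most like Nfib, 6 were matched and 3 held them, Nfia among them. Some of these genes had several windows searched. Nfib was not matched in this table, and the Nfix table entries give 4 starts. The matches are letters in a window and say nothing about binding.

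Reads per cell ran from 85338 to 32130629 with a median of 14609426, and 3 cells held fewer than 1000000. Levels are counts scaled to 1000000 reads per cell (CPM), and 10 CPM was the level from which a cell counted as expressing a gene. The cells were classed by the same level of 4 marker genes: Sox2, a transcription factor of apical progenitors (22 cells), Eomes, which marks intermediate progenitors (20 cells), Neurod6, a factor of young excitatory neurons (16 cells), and Dlx5, a homeobox factor of the interneuron lineage (11 cells). The classes overlap, since 10 cells had both Eomes and Neurod6, 3 had Sox2 and Eomes, and 4 had Sox2 and Dlx5, and 13 cells had none of the 4. Lists of markers were counted in each class. All lists but the neuronal one hold the class gene itself, so 1 marker was fixed in advance. Sox2 cells held a median of 11.5 of 20 apical progenitor genes, and Eomes cells 7 of 12 intermediate progenitor genes. Neurod6 cells held 15 of 22 neuronal, 5 of 8 excitatory and 4.5 of 12 intermediate progenitor genes. Dlx5 cells held 6 of 13 interneuron and ventral telencephalon genes, and also 7 of 20 apical progenitor and 9 of 22 neuronal genes. Cells with neuronal markers were thus present under the labels' name of neural progenitor. No doublet caller was run, and G2/M genes (at least 3 of 20) were also present in 8 of the 16 Neurod6 cells.

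Nfia was the most widely expressed of the members, with 55 of 65 cells at 10 CPM or more (84.6%, exact 95% interval 73.5 to 92.4). Nfib was expressed in 48 cells (73.8%, interval 61.5 to 84.0) and Nfix in 13 (20%, interval 11.1 to 31.8). These intervals cover only the counting error in a number of cells, and no spread between animals. Over all cells Nfia ran from 0 to 5736 CPM with a median of 347 CPM (mean 769, SD 1107, n = 65 cells). Nfib ran from 0 to 6789 CPM with a median of 560 CPM (mean 1038, SD 1463), and Nfix from 0 to 1211 CPM with a median of 0.149 CPM (mean 73.4, SD 214.5). The spread between cells thus exceeded the mean for all 3 genes. Nfic was expressed in 1 cell, at 195.5 CPM, and stayed at or below 3.80 CPM in the others.

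Few cells lay near the level of 10 CPM. The lowest expressing cell held 10.7 CPM of Nfia and the highest cell below the level held 1.38 CPM. For Nfib those values were 11.7 and 4.34 CPM, and for Nfix 27.7 and 9.43 CPM. Single reads were common for Nfix, which had at least 1 read in 46 cells, whereas Nfia and Nfib had reads in 62 and 63. Per kilobase of exon in the GENCODE annotation, the mean level was 80.7 CPM for Nfia, 112 for Nfib, 10.8 for Nfix and 0.476 for Nfic, so that Nfib was the most abundant family member by that measure.

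Across the classes, the levels of Nfia and Nfib were highest in Neurod6 cells. All 16 Neurod6 cells expressed both genes. Nfia ran from 51.2 to 5736 CPM there with a median of 1711 CPM, and Nfib from 375 to 6789 CPM with a median of 2712 CPM. In Sox2 cells Nfia was expressed in 20 of 22 cells, from 0 to 1109 CPM with a median of 355 CPM. Nfib was expressed in 17 of the 22, from 0.0632 to 1367 CPM with a median of 246 CPM. Progenitors and neurons thus both held these genes, and the ranges overlapped: 11 of 16 Neurod6 cells lay above every Sox2 cell for Nfia, and 12 of 16 for Nfib.

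Eomes cells lay between these classes in their medians. Nfia was expressed in 18 of 20 Eomes cells, from 0 to 3054 CPM with a median of 785 CPM, and Nfib in 19 of 20, from 4.34 to 6789 CPM with a median of 958 CPM. The upper part of that range came from the cells that also had Neurod6. In the 10 Eomes cells with Neurod6 the median of Nfib was 2803 CPM and that of Nfia 1378 CPM. In the 10 without Neurod6 the medians were 459 CPM for Nfib and 566 CPM for Nfia, and 9 and 8 of them expressed the genes. In the 18 Sox2 cells without Dlx5 the medians were 477 CPM for Nfib and 433 CPM for Nfia. Eomes cells without Neurod6 were thus not above Sox2 cells without Dlx5 in their median of Nfib, but both groups hold the 3 cells with Sox2 and Eomes. Between cells with 1 class gene only, the order was the other way. The medians of Nfib were 597 CPM in 7 Eomes cells and 493 CPM in 15 Sox2 cells, and those of Nfia 781 and 441 CPM. With the shared cells kept in, the order of the classes for Nfib by median was Neurod6, Eomes, Sox2 and Dlx5. The Eomes and Sox2 medians differed by less than the SD of the Eomes cells (1969 CPM), as did the Eomes and Neurod6 medians, while the Sox2 and Dlx5 medians differed by less than the SD of the Sox2 cells (371 CPM). The order was the same for Nfia, and there too each pair of neighbouring medians differed by less than the larger SD (1624 CPM in Neurod6, 969 in Eomes, 345 in Sox2 cells). The plot of levels by class shows these groups without the overlaps.

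**Figure D1:**
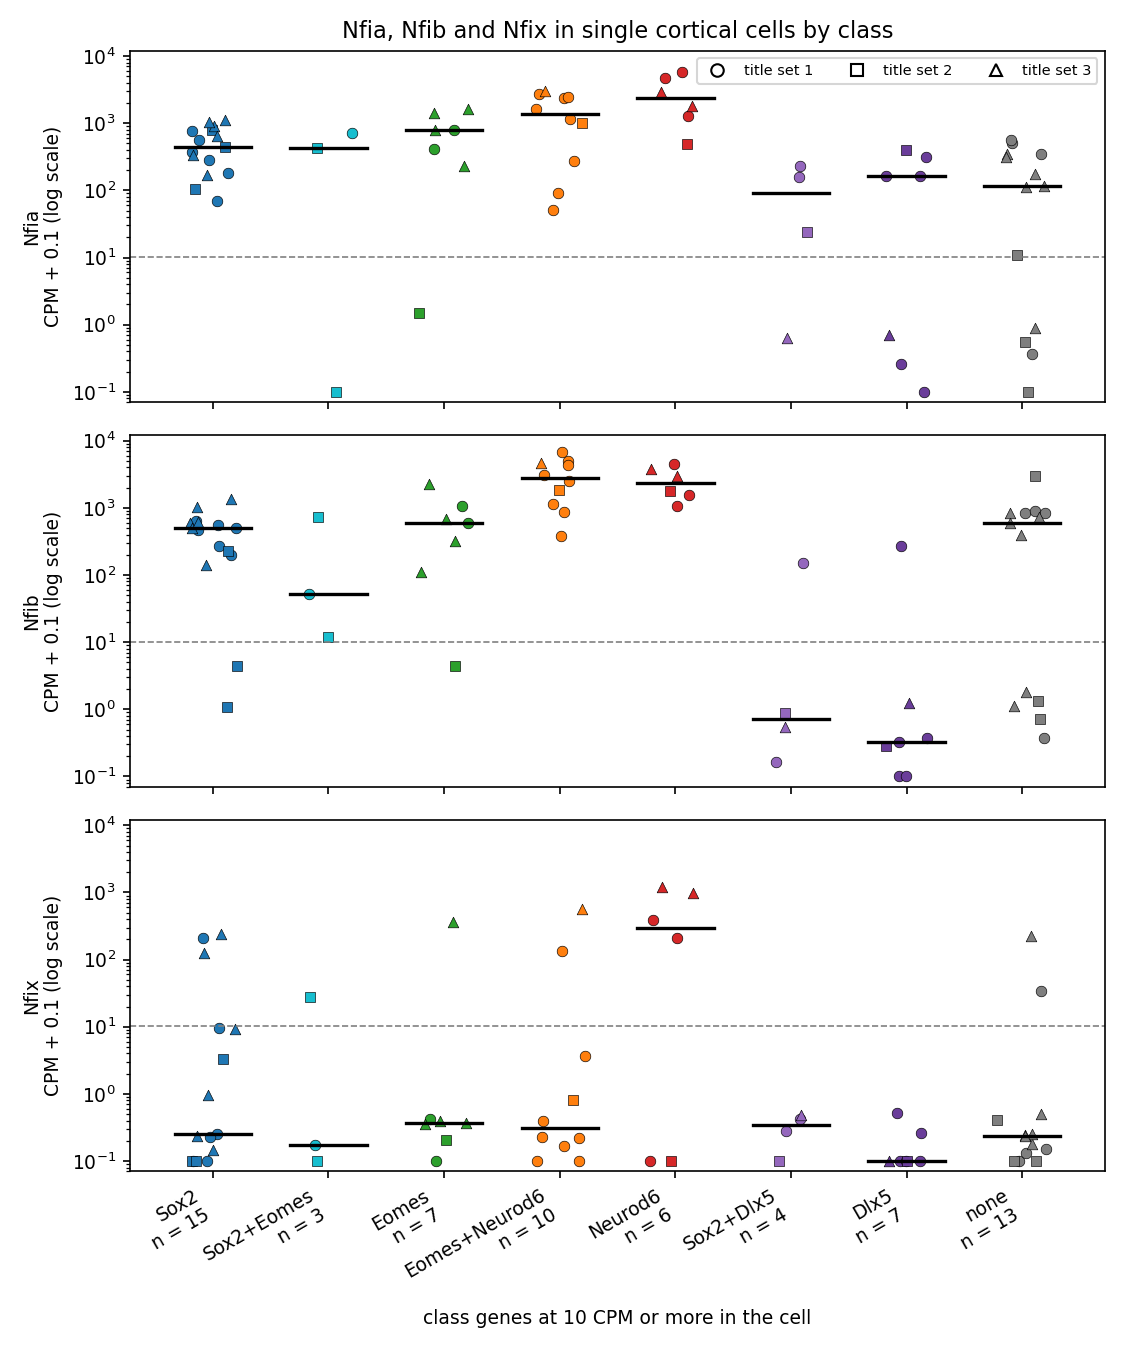
Level of Nfia (top), Nfib (middle) and Nfix (bottom) in each of 65 cells, as CPM + 0.1 on a log scale, for cells grouped by which class genes they hold at 10 CPM or more. Each symbol is a cell, its shape the title set, the bar the group median and the dashed line 10 CPM; all 16 cells with Neurod6 lie above the line for Nfia and Nfib, and 9 of 11 cells with Dlx5 lie below it for Nfib.

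On the scale of the ratio of mean CPM plus 1, Neurod6 cells were 4.67-fold above Sox2 cells for Nfia, 7.85-fold for Nfib and 7.42-fold for Nfix. For Nfix this comes from the few expressing cells, since the log2 ratio of medians plus 1 was 0.37. A 4-fold or larger difference in this direction was found for 12.3% of 9666 genes of mean CPM 5 or more. Eomes cells were 2.73-fold above Sox2 cells for Nfia, 5.47-fold for Nfib and 1.96-fold for Nfix (17 against 19 cells, leaving out those with both class genes), where 12.9% of genes passed 4-fold. Eomes cells that also had Neurod6 and Sox2 cells that also had Dlx5 were kept in this comparison. The members were chosen with these contrasts known, and nothing further is read from the ratios.

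Nfix was found in a minority of every class. It was expressed in 6 of 16 Neurod6 cells, at 131.9 to 1211 CPM, in 4 of 22 Sox2 cells, at 27.7 to 240 CPM, and in 4 of 20 Eomes cells, at 27.7 to 569 CPM. The class medians were all below 1 CPM, so the classes differed in how many cells held the gene and at what level, not in the typical cell. Among Neurod6 cells, Nfix was expressed in 4 of the 6 without Eomes and in 2 of the 10 with Eomes. The title sets moved with this result. All 3 Neurod6 cells of set 3 expressed Nfix, at 569 to 1211 CPM, against 3 of 11 in set 1 and 0 of 2 in set 2. Cells of set 3 were also the most deeply sequenced, with a median of 22483962 reads against 14032041 and 8127759 in sets 1 and 2. The part of depth or set in the Nfix values was not tested.

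Nfib was low in most Dlx5 cells, which is the pattern for which the gene was chosen and is given as a description. It was expressed in 2 of the 11 Dlx5 cells (18.2%) and in 46 of the 54 cells without Dlx5 (85.2%). The 2 cells held 268 and 149 CPM, and the other 9 held 0 to 1.14 CPM, from at most 21 reads in a cell. The 2 cells differed in their other markers. The cell with 149 CPM, cell 7 of set 1, held 1 of 13 interneuron and ventral telencephalon markers, Dlx5 itself, with Dlx1 and Dlx2 at 0, and it held 12 of 20 apical progenitor genes, with Pax6 at 440 CPM. The cell with 268 CPM, cell 1 of set 1, held 7 of the 13 interneuron markers and 9 of the 20 apical progenitor genes. Nfia was expressed in 7 of the 11 Dlx5 cells, with a range of 0 to 400 CPM and a median of 157 CPM. Nfix was expressed in 0 of 11, which allows a share of up to 28.5% (exact 95% interval), and its highest value was 0.428 CPM.

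Taken one at a time in order of Dlx5, the 11 cells fell into 3 patterns. Cells 7 and 1 of set 1 had both genes, with 230 CPM of Nfia beside 149 of Nfib, and 314 beside 268. Their Dlx5 levels, 237 and 258 CPM, were the next above the lowest in the class. A further 5 cells had Nfia with almost no Nfib. In cell 6 of set 2 Nfia was 24.3 CPM and Nfib 0.784 CPM, in cell 11 of set 1 they were 165 and 0.268 CPM, and in cell 14 of set 2 they were 400 and 0.185 CPM. Cells 29 and 4 of set 1 had 163 and 157 CPM of Nfia beside 0.220 and 0.0632 CPM of Nfib, with the highest Dlx5 levels of all, 1214 and 1616 CPM. The last 4 cells had neither gene: cell 40 of set 1, with 0 CPM of both and the lowest Dlx5 level (22.6 CPM), cells 37 and 36 of set 3, at most 0.598 CPM of Nfia and 1.14 of Nfib, and cell 42 of set 1, with 0.159 CPM of Nfia and 0 of Nfib. No cell of the class had Nfib without Nfia.

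**Figure D2:**
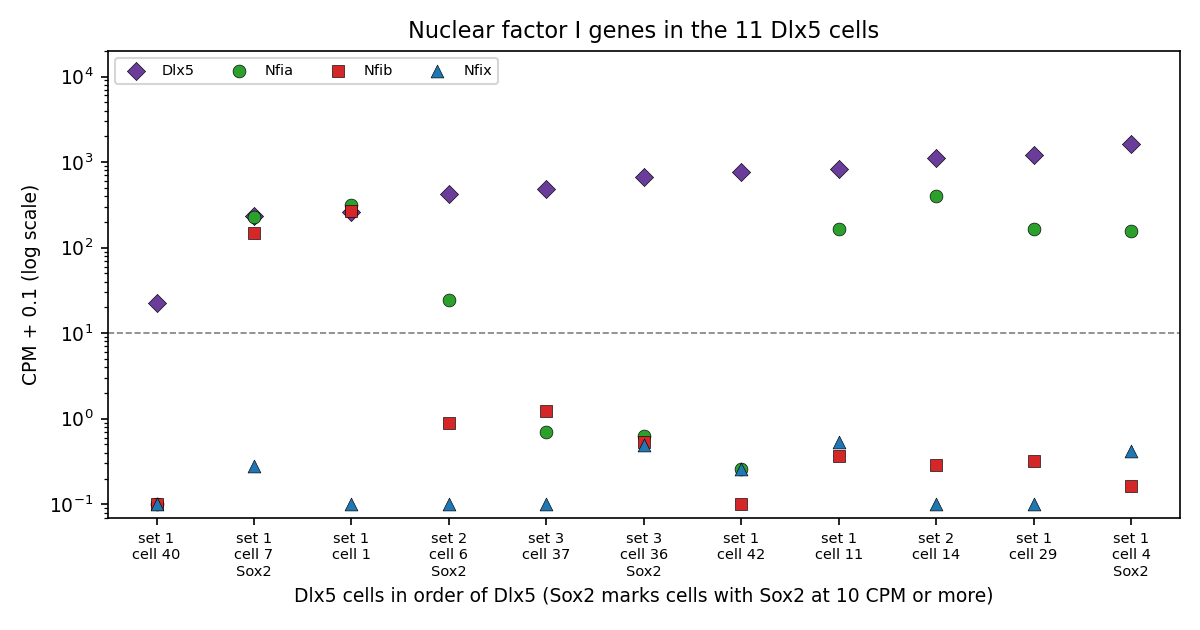
Levels of Dlx5, Nfia, Nfib and Nfix in the 11 Dlx5 cells, as CPM + 0.1 on a log scale, with cells in order of Dlx5 and named by title set and cell number. Nfib lies above the dashed line at 10 CPM in 2 cells, Nfia in 7 and Nfix in 0.

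The Dlx5 cells were not shallow in reads, with a median of 15325647 against 14609426 over all cells. They held fewer genes at 10 CPM or more, with a median of 2592 against 2768 over all cells. That median was 2917.5 in Sox2 cells and 2949 in both Eomes and Neurod6 cells. The part of gene detection in the Nfib values was not tested. By title set, Nfib was expressed in 2 of 7, 0 of 2 and 0 of 2 Dlx5 cells of sets 1, 2 and 3, and in 8 of 9, 3 of 6 and 6 of 7 Sox2 cells. Of the 4 cells that held both Sox2 and Dlx5, 3 expressed Nfia and 1 expressed Nfib, against 15 and 13 of the 15 cells with Sox2 alone. Without Dlx5 itself, the 12 other measured interneuron and ventral telencephalon genes summed to 4.26 to 3638 CPM in Dlx5 cells (median 1633 CPM), lowest in cell 7 of set 1, and to 0.144 to 68.6 CPM in Neurod6 cells. Without Neurod6, the 7 other excitatory genes summed to 0.196 to 660 CPM in Dlx5 cells and to 24.2 to 2961 CPM in Neurod6 cells.

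Neurod6 and Dlx5 cells did not overlap in Nfib. The lowest of 16 Neurod6 cells, at 375 CPM, lay above the highest of 11 Dlx5 cells, at 268 CPM. Of the 9666 genes, 2 had every Neurod6 cell above every Dlx5 cell (0.0207%), Nfib and Neurod6 itself, which defines the class. Nfib was chosen for this contrast, so nothing is read from its place among all genes. For Nfia 13 of 16 Neurod6 cells lay above every Dlx5 cell, and for Nfix 8 of 16 did. The ratio of mean CPM plus 1 between these classes was 14.9 for Nfia, 73.2 for Nfib and 194 for Nfix, the last of which depends on the added 1 because the mean of Nfix in Dlx5 cells was 0.134 CPM. In this comparison 18.8% of genes were at least 4-fold higher in Neurod6 cells. Between Sox2 and Dlx5 cells without the 4 shared cells the ratio was 3.31 for Nfia and 11.1 for Nfib, in a comparison where 31.1% of genes passed 4-fold. That comparison had 18 Sox2 and 7 Dlx5 cells.

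The members occurred together. Nfia and Nfib were both expressed in 47 cells, where 40.6 would be met if they were independent at the same frequencies. These 47 were 85.5% of the Nfia cells and 97.9% of the Nfib cells. Nfia alone was expressed in 8 cells, of which 5 had Dlx5 and 4 had Sox2, 2 of them with both. Nfib without Nfia was seen in 1 cell, the shallowest, where its 11.7 CPM was a single read. All 13 Nfix cells also expressed Nfia and Nfib, where 11 and 9.6 would be met if independent.

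Over 65 cells the Spearman correlation (rho) of log2(CPM + 1) was 0.745 between Nfia and Nfib. It was 0.753, 0.355 and 0.879 within sets 1, 2 and 3. Each was the nearest of 8376 genes to the other by this measure, among genes of mean CPM 10 or more. The rho of Nfix was 0.407 with Nfia and 0.276 with Nfib, and many of its values were at or near 0. These values describe cells of 1 group, and whether the 3 title sets came from 1 pool is not known. The median level of erythroid genes was 0.885 CPM in set 1, 607 CPM in set 2 and 736 CPM in set 3. In the 47 cells with both genes the ratio of Nfib to Nfia CPM had a median of 1.42. It was 0.894 in 16 Sox2 cells, of which 6 had more Nfib reads than Nfia reads, and 1.73 in 16 Neurod6 cells, of which 14 did. Per kilobase, the medians were 37.3 CPM for Nfia and 26.7 for Nfib in all Sox2 cells, and 179.5 and 293.8 in Neurod6 cells. The order of these 2 medians in Sox2 cells depends on those that also had Dlx5. In the 18 Sox2 cells without Dlx5 the medians, not scaled by length, were 433 CPM for Nfia and 477 CPM for Nfib. Such medians are not paired by cell. Of the 2 Dlx5 cells with both genes, 0 had more Nfib than Nfia. Leaving out Dlx5 cells therefore adds none to the 6 Sox2 cells with more Nfib.

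**Figure D3:**
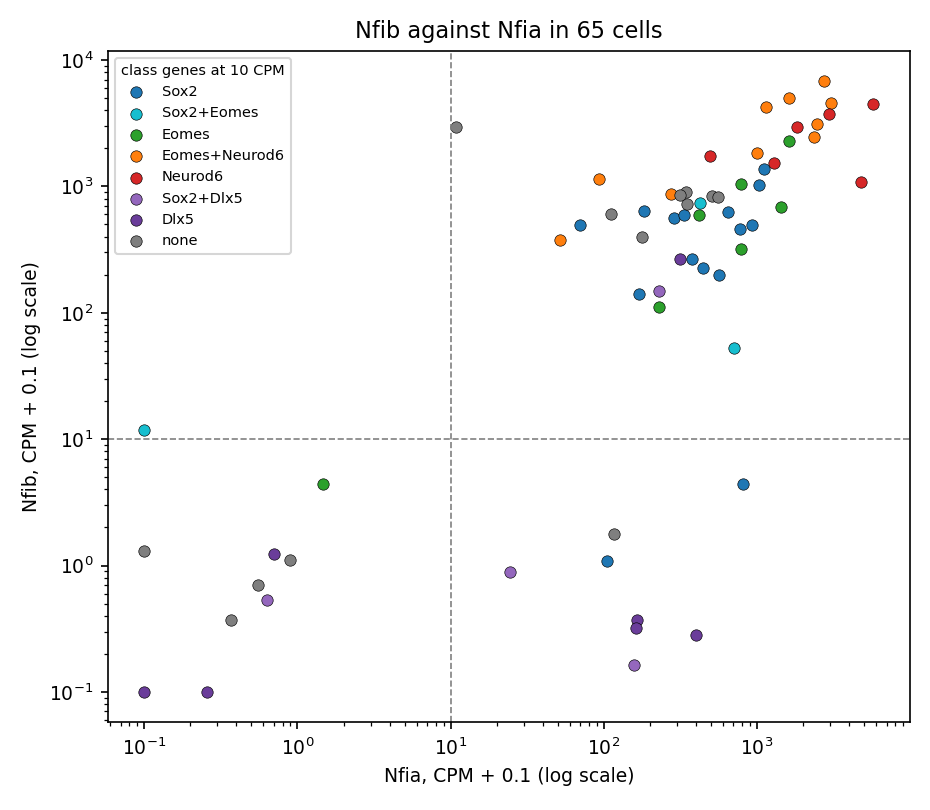
Nfib against Nfia in 65 cells, both as CPM + 0.1 on log scales, coloured by the class genes each cell holds, with dashed lines at 10 CPM. The 47 cells with both genes fill the upper right, 8 cells with Nfia alone lie at the lower right, and 1 cell has Nfib alone.

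A neuronal minus progenitor score was used to ask how the members relate to differentiation. It is the mean log2(CPM + 1) of 22 neuronal genes minus that of 20 apical progenitor genes, and no member is in either list. Over all 65 cells the rho with this score was only 0.0726 for Nfia, 0.131 for Nfib and -0.0759 for Nfix. Without title set 1 it was -0.132 for Nfia and -0.00596 for Nfib, and without set 2 it was 0.0188 for Nfix, so these signs depend on 1 set. In the cells that expressed the gene it was 0.369 for Nfia (55 cells), 0.592 for Nfib (48 cells) and 0.698 for Nfix (13 cells). Cells without Nfia or Nfib were more frequent toward the neuronal end, so for these 2 genes the values in expressing cells leave out more cells there. In 5 successive groups of 13 cells from progenitor to neuron, Nfib was expressed in 13, 10, 10, 7 and 8 cells and Nfia in 13, 12, 12, 10 and 8. The median of Nfib in the first and last group was 633 and 1536 CPM, and that of Nfia 425 and 1283 CPM.

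The neuronal end itself was divided by Neurod6. In the last group of 13 cells, 8 had Neurod6, with 1074 to 6789 CPM of Nfib and 494 to 5736 CPM of Nfia. The other 5 held at most 1.21 CPM of Nfib and 0.792 CPM of Nfia. One of these 5 was a Dlx5 cell, and 4 had none of the class genes but 149 to 2271 CPM of Dcx, a microtubule gene of migrating neurons. Of these 4, cell 18 of set 1 held 601 CPM of the excitatory marker Tbr1. Cell 10 of set 2 held 45.4 CPM of it and cell 34 of set 3 held 50.7 CPM. Cell 23 of set 2 held 0 CPM of Tbr1 and 69.2 CPM of the interneuron marker Gad2, which was 10.6 CPM in cell 18 of set 1. Over the last 2 groups, all 13 Neurod6 cells expressed both genes. Of the 6 Dlx5 cells there, 3 expressed Nfia and 0 expressed Nfib. Of the 7 cells with neither Neurod6 nor Dlx5, some of which had Eomes, 2 expressed each. Cells of high neuronal score thus lay on both sides of the level.

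**Figure D4:**
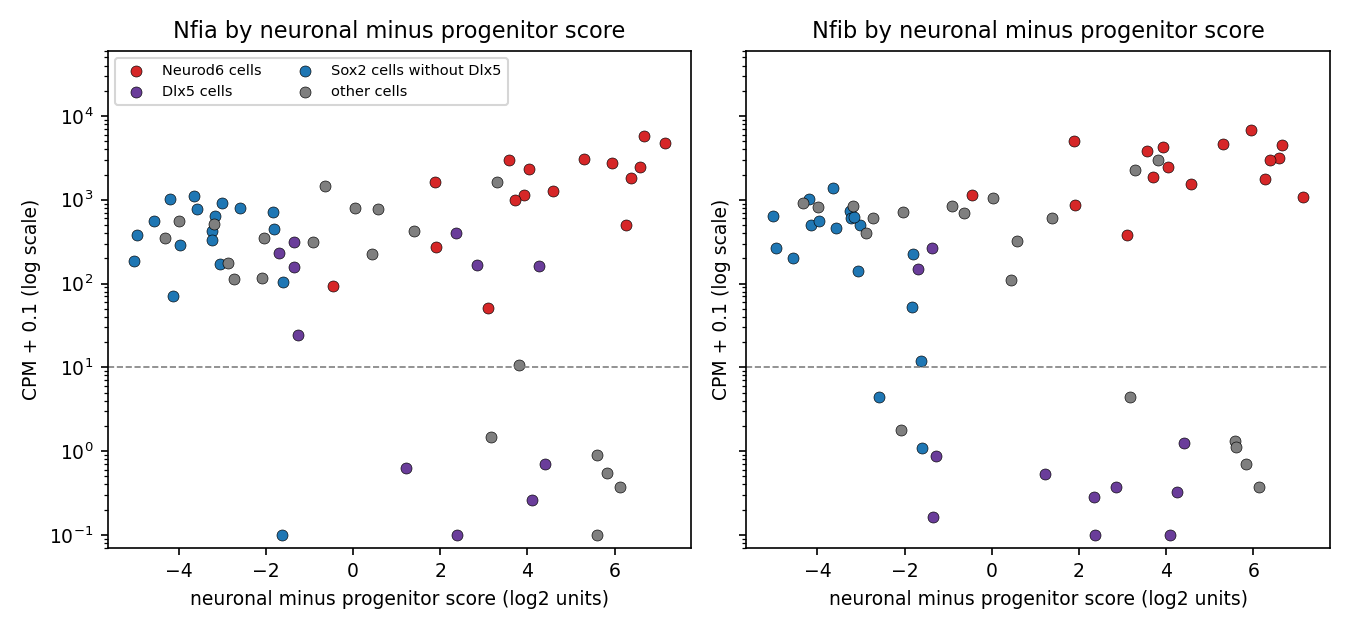
Nfia (left) and Nfib (right) as CPM + 0.1 on a log scale against the neuronal minus progenitor score in log2 units, 1 point per cell, with a dashed line at 10 CPM. Red Neurod6 cells lie above the line at the neuronal end, and purple Dlx5 cells at scores above 0 lie below it for Nfib but on both sides for Nfia. Grey cells lack Sox2, Neurod6 and Dlx5 but may have Eomes. Toward the neuronal end, 4 grey cells without class genes and a grey Eomes cell lie below the line in both panels.

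The cell cycle was followed with 2 lists. In Sox2 cells with Top2a, the topoisomerase of dividing cells, Nfia was expressed in 16 of 17, Nfib in 14 and Nfix in 4. In the 5 Sox2 cells without Top2a these counts were 4, 3 and 0. Over all cells the rho of Nfib was -0.121 with the mean of 20 G1/S genes and 0.0334 with that of 20 G2/M genes, and for Nfia it was -0.0948 and 0.0748. In expressing cells alone, the rho with the G1/S list was -0.480 for Nfia and -0.620 for Nfib, and with the G2/M list -0.224 and -0.362. That filter drops the cells of high neuronal score without the genes. In the last group of 13 by score it leaves 8 cells, all with Neurod6, the class in which both genes were highest. Nothing further is read from these values. Sox2 cells with Top2a had a median of 287 CPM of Nfia and 225 CPM of Nfib, so that dividing progenitors held both genes.

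The genes whose pattern was most like that of Nfia and Nfib included several of young excitatory neurons. A rho of 0.4 or more was reached by 33 genes for Nfia (0.394% of those tested), 41 for Nfib (0.489%) and 34 for Nfix (0.406%). A rho of -0.4 or less was reached by 3 genes for Nfia (0.0358%), 11 for Nfib (0.131%) and 5 for Nfix (0.0597%). The named genes are those with the most extreme rho that kept 1 sign in all 3 title sets, among genes at 10 CPM or more in at least 10 cells. Beside Nfib, the nearest to Nfia were Pam, which encodes an enzyme that amidates peptides (0.520), Neurod2, a neuronal differentiation factor (0.498), the forkhead gene Foxn3 (0.494), Tax1bp3 (0.490), Zfand6 (0.472), the kainate receptor subunit gene Grik2 (0.469) and the semaphorin receptor gene Plxna4 (0.446). Beside Nfia, the nearest to Nfib were Grik2 (0.531), Trak1, an adaptor for mitochondrial transport (0.526), Pam (0.520), Enc1, an actin-binding protein gene of neurons (0.518), Nhlh1 (0.507), Crabp2, which encodes a retinoic acid carrier (0.496), and Neurod6 (0.490).

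Counts of cells show what lies behind these values. Neurod2 was expressed in 17 cells, and all 17 expressed both Nfia and Nfib, where 14.4 and 12.6 would be met if independent. It was present in 12 of 16 Neurod6 cells, 1 of 22 Sox2 cells and 0 of 11 Dlx5 cells. Pam was expressed in 30 cells, 28 of which had Nfia and 28 Nfib, where 25.4 and 22.2 would be met if independent. It was present in 14 of 16 Neurod6 and 0 of 11 Dlx5 cells. Nhlh1 was expressed in 15 cells, of which 14 had Nfib (11.1 if independent), and 13 of the 15 had Eomes. Trak1 was expressed in 13 cells, all with Nfib (9.6 if independent).

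Zfhx3 showed the opposite pattern. Its rho was -0.622 with Nfib (-0.723, -0.547 and -0.369 within sets 1, 2 and 3) and -0.446 with Nfia. It was expressed in 23 cells, of which 11 had Nfib, and in 12 of the 17 cells without Nfib. By class it was present in 9 of 11 Dlx5 cells with a median of 457 CPM, in 10 of 22 Sox2 cells, in 2 of 20 Eomes cells and in 1 of 16 Neurod6 cells. Nrip1, which encodes a nuclear receptor corepressor, had a rho of -0.588 with Nfib and -0.435 with Nfia. It was expressed in 11 cells, 5 of them with Nfib (8.12 if independent). Among genes expressed in at least 10 cells, the unnamed transcripts 2610017I09Rik and A330069E16Rik followed for Nfib, with -0.530 and -0.423. For Nfia the next among such genes were Azin1, which encodes an inhibitor of antizyme (-0.386), and Scrn1 (-0.368). Dlx1 and Sp9, expressed in fewer cells, are given with their list below. Nothing about shared control is read from these likenesses.

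**Figure D5:**
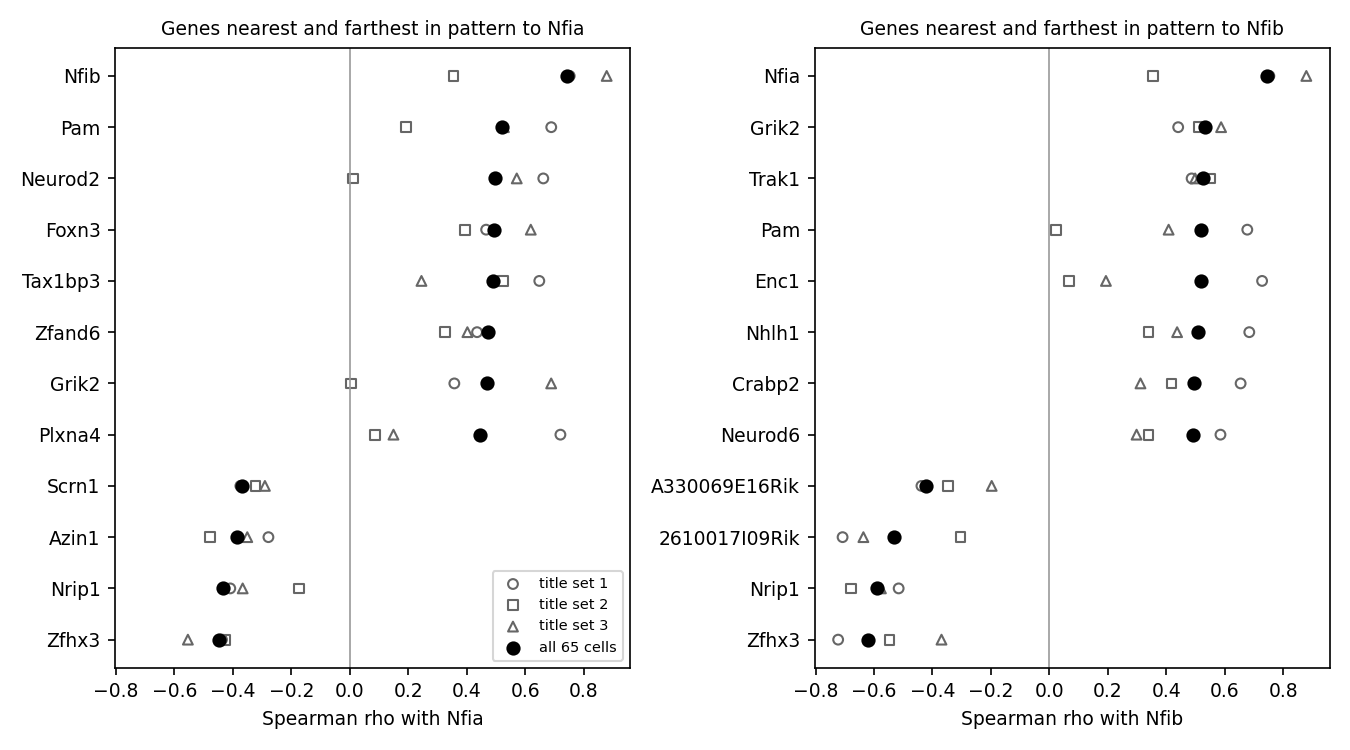
Spearman rho over cells between Nfia (left) or Nfib (right) and the 8 genes of highest and 4 of lowest rho with 1 sign in every title set, among genes expressed in at least 10 cells. Filled points are all 65 cells and open symbols the 3 title sets. The 2 genes head each other's lists, and Zfhx3 is lowest in both.

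Of 18 tested genes of deep layers and excitatory neurons, 2 reached a rho of 0.4 with Nfia, Neurod2 and Sox5, and 4 did so with Nfib: Neurod1 (0.415), Neurod2 (0.510), Neurod6 and Tbr1 (0.428). The median rho of the list was 0.233 for Nfia and 0.211 for Nfib, beside 0.0386 and 0.0135 over all genes tested. For Nfix 0 of 18 did, with a median of 0.0363 beside 0.0329. Of 9 tested interneuron and ventral telencephalon genes, Dlx1 reached -0.4 with Nfia (-0.403), and Dlx1 (-0.514), Sp9 (-0.504) and Dlx5 (-0.413) did so with Nfib. Over all genes 0.0358% reached -0.4 with Nfia and 0.131% with Nfib. These lists hold the class genes Neurod6 and Dlx5, and Nfib was chosen for its low level in Dlx5 cells, so nothing is read from the counts. Dlx1 was expressed in 9 cells, of which 7 had Nfia and 2 had Nfib, where 7.62 and 6.65 would be met if independent. The cells that carry these genes are largely the Dlx5 cells already described. Of 12 housekeeping genes, and of 19 G1/S and 20 G2/M genes, 0 passed in either direction for any member.

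A list of genes linked to the family as partners, upstream regulators or targets was examined in the same way. Of 23 listed genes 20 were measured and 16 tested, and a rho of 0.4 was reached by 0 for Nfia, 1 for Nfib and 1 for Nfix, where 0.394%, 0.489% and 0.406% of all genes reached it. With 16 genes such shares leave few to be met, so the counts do not separate the list from other genes. The median rho of the list was 0.084 for Nfia, -0.0056 for Nfib and 0.0875 for Nfix, beside 0.0386, 0.0135 and 0.0329 over all genes. The gene for Nfib was Lhx2, a cortical selector factor, with a rho of 0.450 (0.420, 0.487 and 0.478 in sets 1, 2 and 3). It was expressed in 43 cells, in 35 of the 48 with Nfib (31.8 if independent), and in 4 of 11 Dlx5 cells. The rho of Lhx2 with Nfia was 0.118. For Nfix it was Mmd2, a membrane protein gene, with a rho of 0.478. It was expressed in 13 cells, 6 of them with Nfix and 12 with Nfia, where 2.6 and 11 would be met if independent. Sox9, an upstream activator of Nfia in glial development, had a rho of 0.0743 with Nfia and -0.127 with Nfib, and the repressive chromatin gene Ezh2 had -0.108 and -0.247. The radial glial gene Fabp7 had 0.106 and 0.0327, and Aqp4, a later astrocyte gene, was expressed in 1 cell.

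The genes nearest to Nfix were Higd1a (0.536) and Ndufc2 (0.463), both genes for mitochondrial proteins, Vps28 (0.510), a sorting complex gene, Eprs (0.460), a tRNA synthetase gene, Lin37 (0.459), Gm10845 (0.451), Txnl1 (0.451) and Znrf3 (0.433). At the other end were H2afy2 (-0.475), 2700089E24Rik (-0.412) and Brd3 (-0.390). The rho of Nfix with the number of reads per cell was 0.352, and that of Higd1a and Ndufc2 was 0.470 and 0.445. Depth thus moved with both, and its part in these likenesses was not tested. With 52 of 65 values below 10 CPM, the ranking of Nfix rests mostly on cells with few or no reads.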

How the data were processed

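The deposited table holds whole-number read counts per gene for 65 cells, with no normalization, and the authors' alignment and counting are known only from the submitters' processing notes, which name TopHat2, HTSeq and the build mm9; versions and annotation are not given in the sources used here. The SMARTer kit named in the labels' protocols does not mark strand, so reads of antisense genes cannot be told from those of the members. There were 0 further columns, and 0 pairs of cells had identical counts.

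Counts were scaled to CPM by each cell's total over 11971 genes (Python 3.11.15, pandas 2.3.3, scipy 1.17.1). Likeness was Spearman rho of log2(CPM + 1) among genes of mean CPM 10 or more, called at 0.4, and class ratios used mean CPM + 1, called at 4-fold, leaving out cells of both classes. Named genes are the members, Nfic, the class genes, list members, and for each member the 8 highest and 4 lowest rho among genes at 10 CPM in at least 10 cells with 1 sign in all title sets. Of these, 1 gene is not reported here. Genes shown by other counts were chosen after their values were seen. The members and all lists were chosen with earlier results of these data known. Intervals are exact Clopper-Pearson, 95%. The likeness and ratio steps were tested on simulated data.

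Alternatives were levels of 1 and 50 CPM (for class genes and members alike), TMM (edgeR 4.0.16) and scran 1.30.0 scaling, thinning to 1000000 reads, Pearson correlation, centring within title sets, medians, no filter, the highest cell set to the next, and each title set left out. Leaving out the 3 cells under 1000000 reads was added after seeing the data. RefSeq protein sequences were not used here, so the planned protein comparison was not made.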

Additional observations from a re-analysis of the deposited data

How the results depend on the processing

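The main results were recomputed under the alternatives, which gave 217 values, each 1 result under 1 alternative, so that a result counts several times. Of these values, 200 moved by less than their interval, the spread between title sets or 1.5 times, and 17 moved further. Of the correlations of the members with the differentiation and cell cycle scores, all weak, 5 changed sign when a set was left out. Without set 1 the rho with the differentiation score went to -0.132 for Nfia and -0.00596 for Nfib. Without set 2 that of Nfix went to 0.0188 and its rho with G2/M genes to -0.0274, and without set 3 its rho with G1/S genes went to 0.0935. Without title set 1, 0% of Dlx5 cells expressed Nfib, since both expressing cells belong to that set. Without title set 2, 100% of Eomes cells expressed Nfia and 100% expressed Nfib. With Pearson correlation, 10 genes reached -0.4 with Nfia, 13 reached 0.4 with Nfix and 0 reached -0.4 with Nfix. With scran size factors, 5 genes reached -0.4 with Nfia and 9 with Nfix. With values centred within title sets, 21 genes reached 0.4 with Nfia, 27 with Nfib and 72 with Nfix, and 0 reached -0.4 with Nfia or Nfix. With medians in place of means, the genes at least 4-fold higher numbered 733 in Neurod6 over Sox2 cells, 477 in Eomes over Sox2, 772 in Neurod6 over Dlx5 and 964 in Sox2 over Dlx5 cells. The cause of these moves was not tested.

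The share of Dlx5 cells with Nfib was 27.3% at a level of 1 CPM, 20% at 50 CPM and 18.2% after thinning every cell to 1000000 reads. With medians in place of means, the log2 ratio of Neurod6 over Dlx5 cells went from 6.19 to 11.06 for Nfib and from 7.60 to 0.59 for Nfix, and that of Sox2 over Dlx5 cells from 3.47 to 8.61 for Nfib and from 5.05 to 0.19 for Nfix. That of Nfix in Neurod6 over Sox2 cells went from 2.89 to 0.37. After thinning, Nfix was expressed in 22.6% of cells, beside 20% in the full data. No paired analysis was possible because all cells form 1 group.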

Other observations

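The 4 cells at the neuronal end that had none of the class genes and no Nfia or Nfib were set beside the 8 Neurod6 cells in the same range of the score, after their values were seen and with no test. All 4 expressed Ina, an intermediate filament gene of neurons, at 289 to 1359 CPM, and so did all 8 Neurod6 cells. All 4 expressed Rgs2, a regulator of G protein signalling, with a median of 169 CPM, as did 2 of the 8. Trim46, which organises microtubules at the axon start, was expressed in all 4 at 10.9 to 267 CPM, and in 3 of the 8 Neurod6 cells. The noncoding RNA Meg3 had a median of 873 CPM in the 4 cells and was expressed in 5 of the 8. They came from title set 1 (1 cell), set 2 (2 cells, 1 of them with 823472 reads) and set 3 (1 cell).

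The 3 cells with at least 3 of 7 Cajal-Retzius markers, 1 in each title set, all expressed Nfia (10.7, 781 and 1283 CPM) and Nfib (321 to 2951 CPM). Cell 22 of set 2 was the 1 with 2951 CPM of Nfib and 10.7 CPM of Nfia. Reln, 1 of the 7 markers, stood at 7134 CPM in cell 39 of set 1, which was also a Neurod6 cell. It was 0.0758 CPM in cell 22 of set 2 and 0.0744 CPM in cell 41 of set 3, an Eomes cell. Whether these are Cajal-Retzius cells was not tested.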
